A study of Mus musculus with 298 samples.

Results

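The 93 genes described here encode subunits of the oxidative phosphorylation machinery, 13 of them on the mitochondrial genome and 80 in the nucleus. They were taken from the table by name and not by their values: protein-coding rows with a symbol starting with mt-, or naming a complex I (Nduf), complex II (Sdh), complex III (Uqcr), complex IV (Cox4 to Cox8) or ATP synthase (Atp5) subunit. They are 93 of 14605 rows, of which 11325 are protein coding, and 9 of the 102 annotated genes that fit the same name rule had no row in the table. Complex I was represented by 7 mitochondrially and 37 nuclear encoded genes, complex II by 4 nuclear genes only, complex III by 1 and 8, complex IV by 3 and 13, and complex V by 2 and 18.

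Oxidative phosphorylation passes electrons from complexes I and II through complex III to complex IV, and complex V uses the resulting proton gradient to make ATP. All of these complexes except complex II are built from subunits of both genomes. The mitochondrial subunits are transcribed inside the organelle as long polycistronic RNAs from both strands, by a dedicated polymerase, whereas the nuclear ones are transcribed gene by gene and imported as proteins. Mature red cells have no mitochondria, and circulating neutrophils are known for few mitochondria and a mainly glycolytic metabolism, whereas lymphocytes, monocytes and platelets carry respiring mitochondria.

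The libraries are 298 total RNA profiles from the blood of 20 male and female C57BL/6 mice, sampled from week 0. Sampling was weekly, except that mice of the TOTO cohort were sampled only at weeks 12, 16 and 18 after week 8. Every mouse, controls included, carried 1 copy of each of the 2 transgenes (tTA+/-, BCR-ABL+/-) of the SCLtTA/BCR-ABL model, in which the tetracycline-responsive activator is driven from Scl regulatory sequence and tetracycline in the drinking water (0.5 g/L) keeps the leukaemia gene BCR-ABL off. Mice were 6 to 8 weeks old when they were assigned to cohorts. Control mice (3 mice, 57 libraries) stayed on tetracycline. Tetracycline was withdrawn after week 0 in the CML cohort (6 mice, 94 libraries), in the TOTO cohort (4 mice, 48 libraries), which returned to tetracycline for 12 weeks after 6 weeks without it, and in the TKI cohort (7 mice, 99 libraries), which received the BCR-ABL inhibitor nilotinib (50 mg/kg by daily gavage) for 4 weeks after week 6 with the transgene still on. Some CML and TKI mice left the series before week 18, so late weeks hold fewer animals.

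Several facts about the libraries bear on the values that follow. The tissue label reads PBMC, but RNA came from whole blood, and haemoglobin transcripts took between 0.331 and 74.8% of all TPM (median 42.6%); neutrophil, platelet and lymphocyte markers were present as well. Because these are bulk samples, fewer cells of a type and less RNA per cell cannot be told apart. A minimum RNA integrity number of 4 was recorded for all libraries, and the part of RNA quality in the values was not tested. The number of genes at 1 TPM or more ranged from 2552 to 13256. The library with 2552 genes, control mouse 490 at week 17, also held the highest mitochondrial share (3.00% of TPM) and entered none of the comparisons. The BCR-ABL transcript, which checks the labels, was at 0 TPM in 49 of 57 control libraries and reached 0.716 at most; at week 6 it lay between 4.58 and 36 in TKI mice and between 1.54 and 16.0 in TOTO mice. In CML mice at week 6 it ranged from 0 to 10.6, and in the library series labelled CML 487 the transcript read 0 TPM at 16 of 19 weeks and 0.409 TPM at most, so results that use CML mice are also given without that animal.

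The mitochondrial genes share sequence with nuclear copies of mitochondrial DNA, and this affects which row a read was assigned to. Copies were searched among annotated transcripts in the sense direction only, so unannotated or antisense copies were not covered. Of the 13 mitochondrially encoded genes, 11 had a copy of at least 90% identity among these transcripts and 7 had one of at least 99%. The 19 copies found were counted by gene name, and some of them overlap on the genome. Of the 19, 7 had rows of their own in the table, all in 1 block of chromosome 1. The case of mt-Co2, a core subunit of complex IV that accepts electrons from cytochrome c, is shown because its expression row cannot be read without it. The first 90 bases of mt-Co2 (chrM:7013-7696, plus strand), of Gm28661 (chr1:24653966-24654646, minus strand) and of Gm13341 (chr2:22477303-22477974, minus strand, no row) read as follows, with capitals at the bases that differ from mt-Co2.
mt-Co2: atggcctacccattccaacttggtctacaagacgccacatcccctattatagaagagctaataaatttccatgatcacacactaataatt
Gm28661: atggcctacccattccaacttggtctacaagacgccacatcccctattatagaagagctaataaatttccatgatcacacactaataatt
Gm13341: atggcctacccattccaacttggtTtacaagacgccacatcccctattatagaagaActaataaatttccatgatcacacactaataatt

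Gm28661 was identical to mt-Co2 over all of its 681 bases, and no read inside it could be told from an mt-Co2 read. Its mean level over the 298 libraries was 1009 TPM, against 11.9 TPM for mt-Co2 itself, which was listed at 0 in 58 libraries. The complex IV subunit mt-Co3 (137 TPM) stood beside Gm28437 (653 TPM), identical over 783 bases, and the proton-channel subunit of ATP synthase mt-Atp6 (99.4 TPM) beside Atp6-ps (505 TPM), identical over 678 bases. For mt-Nd3, a membrane subunit of complex I (chrM:9459-9806, plus strand), the copy Gm28438 (chr1:24651856-24652200, minus strand) had a mean of 33.6 TPM against 124 TPM. These differ by a single substitution, T3C, counted from the first base of mt-Nd3 and marked in capitals in the first 60 bases of each.
mt-Nd3: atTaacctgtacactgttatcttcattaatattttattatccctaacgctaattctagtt
Gm28438: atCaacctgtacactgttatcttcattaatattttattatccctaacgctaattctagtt

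Values of mt-Co2, mt-Co3, mt-Atp6, mt-Nd3, mt-Nd4, mt-Nd4l and mt-Co1 are therefore uncertain as levels of the mitochondrial transcript. Adding the copies' TPM to their mitochondrial partners, or leaving out the genes with a close copy, was tried on every comparison as an alternative chosen after seeing the data. For TOTO mice from week 6 to week 8, the mitochondrial minus nuclear difference of median log2 changes was taken in each mouse and averaged over mice. It was 2.01 as deposited, 2.03 with the copies added and 2.06 without those genes.

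**Figure D1:**
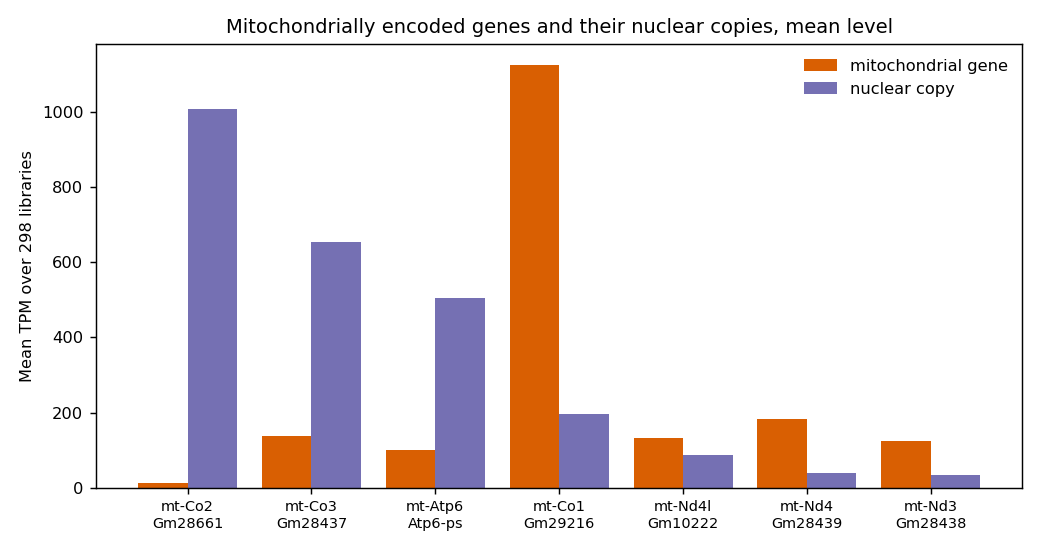
Mean TPM over the 298 libraries (bars, from 0) of 7 mitochondrially encoded genes and of the chromosome 1 copy of each that has its own row. Gm28661 (1009 TPM) stands far above mt-Co2 (11.9 TPM), while mt-Nd3 (124 TPM) stands above Gm28438 (33.6 TPM).

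For the 80 nuclear genes, the window from 250 bases before to 50 bases after the annotated start was searched on both strands for binding motifs of factors known to act on respiratory genes. The NRF1 motif occurred in 4 of 80 windows (5%) and in 252 of 21757 protein-coding windows of the same length (1.16%). The ETS-type motif CCGGAAG, of the kind bound by NRF2/GABP, occurred in 12 (15%) and in 2233 (10.3%), and the YY1 motif in 1 (1.25%) and in 181 (0.832%). The motifs do not overlap one another, and 16 of 80 windows (20%) held at least 1, against 11.8% of all windows. An example of each of the first 2 is shown, with the motif in capitals: Cox6a1, which encodes the ubiquitous form of a complex IV subunit (chr5:115487145-115487204, minus strand, inside a window that overlaps an exon of the long non-coding RNA A430102K17Rik, motif starting 139 bases before the start), and Atp5f1e, the epsilon subunit of ATP synthase (chr2:174305964-174306023, minus strand, reverse complement of the ETS motif, 90 bases before the start).
Cox6a1: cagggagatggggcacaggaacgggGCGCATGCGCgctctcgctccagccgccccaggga
Atp5f1e: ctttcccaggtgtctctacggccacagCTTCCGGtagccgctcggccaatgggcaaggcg

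Because TPM is scaled per transcript length, levels can be set side by side between genes, except where a near-identical copy may hold part of the reads. The shares and ranks of mitochondrial genes below use their own rows, without the copies. The 13 mitochondrial genes together held a median of 0.263% of all TPM in a library, with a range from 0.00708 to 3.00%. The 79 nuclear genes with a mean of at least 1 TPM held 0.229%, with a range from 0.0674 to 0.485%. The mitochondrial share therefore varied far more from library to library. Among mitochondrial genes, mt-Co1, the catalytic core of complex IV, was the highest by median over libraries (1044 TPM), followed by mt-Cytb (268 TPM), the only mitochondrial subunit of complex III, and mt-Atp8 (189 TPM), a small ATP synthase subunit. The complex I subunits mt-Nd1 (175 TPM) and mt-Nd4 (166 TPM) came next, then mt-Co3 (107 TPM), mt-Nd3 (103 TPM), mt-Nd5 (100.3 TPM), mt-Nd4l (98.8 TPM) and mt-Atp6 (82.8 TPM). mt-Nd2 (55.5 TPM) and mt-Nd6 (51.7 TPM), the single subunit encoded on the opposite strand, were lower, and the row of mt-Co2 (7.97 TPM) was the lowest. The copies Gm28661 of mt-Co2, Gm28437 of mt-Co3 and Atp6-ps of mt-Atp6 had medians of 962, 585 and 441 TPM. The ranks of these mitochondrial genes are therefore uncertain. The library of control mouse 490 at week 17 alone lifted some means: that of mt-Nd5 was 147 TPM with it and 112 TPM without it, and that of mt-Nd6 92.3 and 64.3 TPM.

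Most nuclear subunits were expressed at a lower level than the mitochondrial ones, with mean levels whose median over genes was 18.4 TPM against 137 TPM; the levels that follow are means over libraries. The highest was Atp5if1 (135 TPM), the inhibitor that stops ATP synthase from running in reverse, and Ndufa3 (113 TPM), an accessory subunit of complex I, was second. Cox4i1 (95 TPM), the regulatory subunit of complex IV, and Uqcrh (83.8 TPM), the hinge protein of complex III, were the highest of their complexes, and Sdha (16.7 TPM), the flavoprotein of succinate dehydrogenase, led complex II. Where a subunit has tissue-specific paralogues, the ubiquitous form was the higher: Cox6b1 at 81.7 TPM against the testis form Cox6b2 at 6.99, and Cox7a2 at 28.3 TPM against the heart and muscle form Cox7a1 at 0.374. The related supercomplex factor Cox7a2l was at 61.9 TPM. Cox6a1 (75.0 TPM), Cox8a (85.8 TPM) and Ndufa4 (58.8 TPM) had no partner to set beside them, since Cox4i2, Cox6a2, Cox8b, Cox8c and Ndufa4l2 had no row. The 3 genes for the c-ring subunit of ATP synthase had means of 11.2 (Atp5mc1), 5.00 (Atp5mc2) and 27.1 TPM (Atp5mc3). Cox7a1 was the one gene left out of the tests, for a mean under 1 TPM, so 92 of the 93 genes and 10519 genes in all were tested.

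The mitochondrial genes moved together from library to library with a few exceptions. Over the 298 libraries, which share mice and differ in depth and blood composition, the Spearman correlation of log2 levels with the median of the other 12 was highest for mt-Nd1 (0.930) and mt-Cytb (0.925). It was lower for mt-Nd6 (0.682), mt-Nd4l (0.519) and mt-Co2 (0.327), the gene that shares its whole sequence with Gm28661. The nuclear genes that tracked the mitochondrial median most closely were Ndufa12 (0.724), Uqcrb (0.723), Cox7a2l (0.715), Sdha (0.715) and Uqcrc2 (0.705). The weakest were Ndufa3 (0.403), Atp5if1 (0.319), Cox7a1 (0.220) and Cox6b2 (-0.02). All these values are descriptions of shared variation and carry no test.

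To follow both genomes through the disease, the median log2(TPM + 1) of the 13 mitochondrial genes minus that of 79 nuclear genes was taken in each library. These 79 had a mean of at least 1 TPM. A scaling factor of the library largely cancels in this difference. In control mice this level difference had means of 2.79 ± 0.18 at week 0, 2.74 ± 0.16 at week 6, 2.70 ± 0.29 at week 8 and 2.54 ± 0.50 at week 18 (SD, n = 3). It was not constant between these weeks: the control means were 3.34 at weeks 1 and 2, 3.37, 3.51 and 3.31 at weeks 11, 12 and 13 and 4.07 at week 17, which includes the library of mouse 490. At week 0 its mean was 3.36 ± 0.55 in CML (n = 6), 3.53 ± 0.52 in TKI (n = 7) and 3.16 ± 0.63 in TOTO mice (n = 4), and their ranges overlapped that of the controls. By week 6 without tetracycline it was 2.53 ± 0.75, 2.64 ± 0.71 and 1.27 ± 1.22 in the same order. At week 16 CML mice averaged 1.95 ± 0.44 (n = 4) and TKI mice 1.76 ± 0.65 (n = 3), whereas TOTO mice, back on tetracycline, averaged 2.93 ± 0.32 (n = 4) and controls 2.63 ± 0.22 (n = 3). CML mice at week 18 averaged 2.52 ± 0.56, from the 3 animals still sampled, close to the 2.54 of controls.

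Changes between weeks were taken gene by gene. For each mouse, the shift between the genomes is the median change of the 13 mitochondrial genes minus the median change of the 79 nuclear genes tested, and the fitted shift is the same taken over the changes fitted by limma. A median of changes need not equal the change of a median, so the change of the level difference is given beside the shift.

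**Figure D2:**
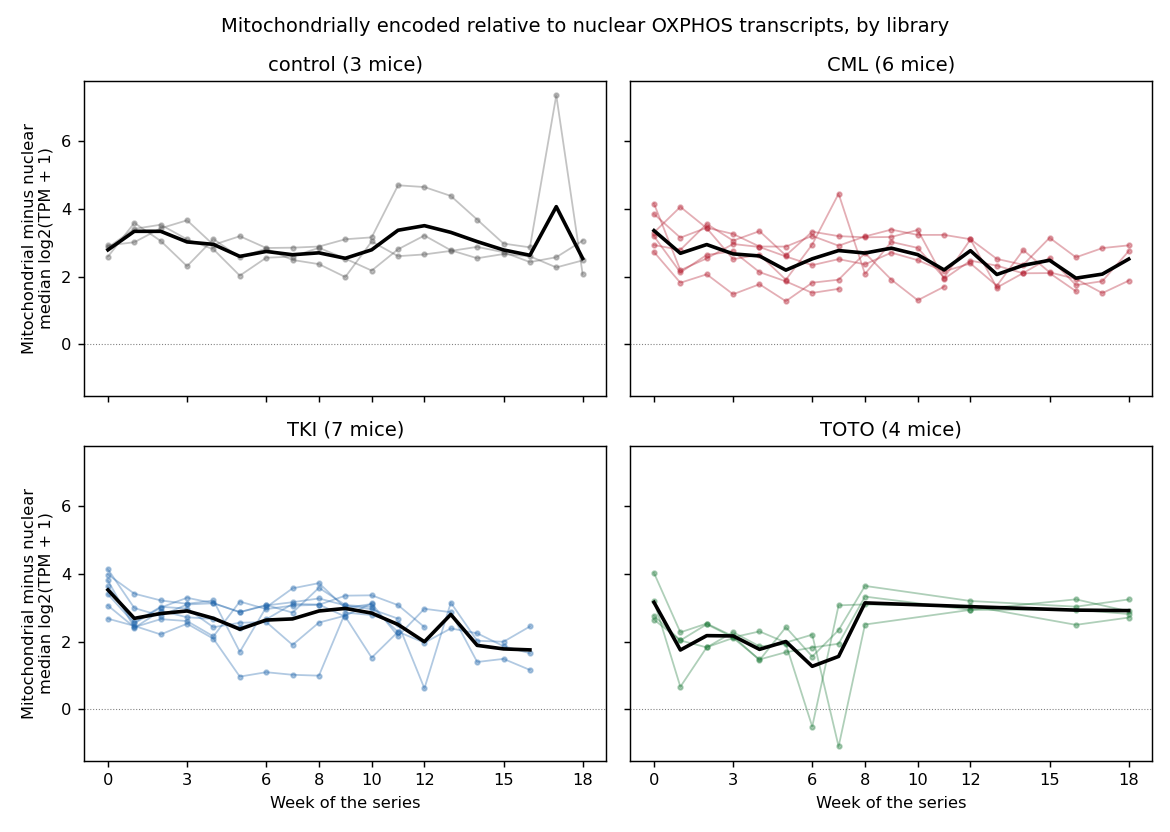
Median log2(TPM + 1) of the mitochondrially encoded genes minus that of the nuclear encoded genes (y axis) by week (x axis), 1 panel per cohort; thin lines are mice and the black line their mean. The highest value was that of control mouse 490 at week 17 (7.36), and the lowest were those of TOTO mouse 482 at week 6 (-0.51) and TOTO mouse 545 at week 7 (-1.1). TOTO mice were between 2.51 and 3.65 at week 8.

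**Figure D3:**
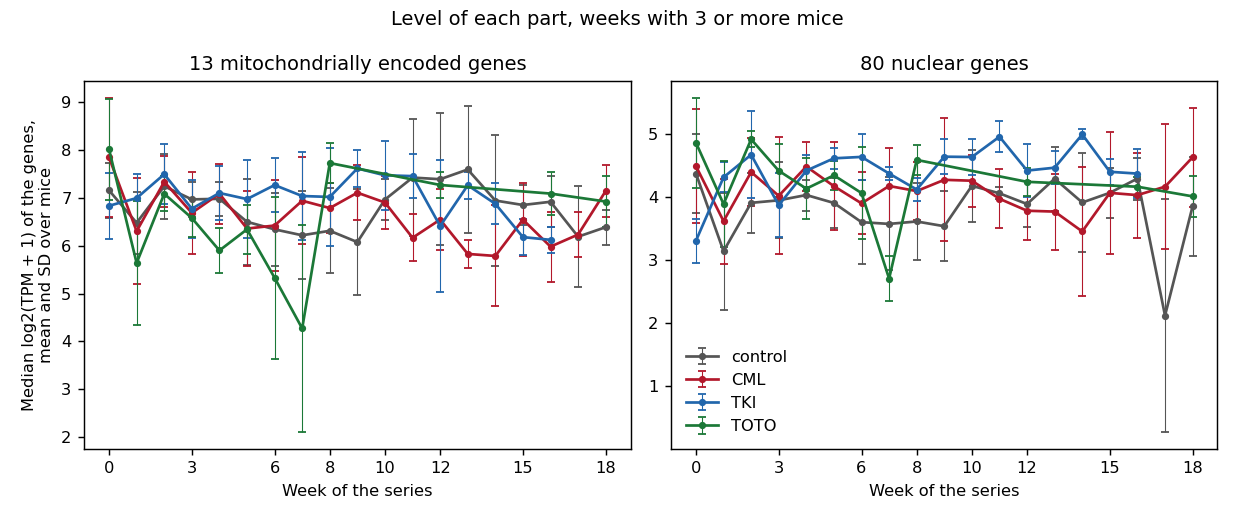
Mean and SD over mice of the median log2(TPM + 1) of the mitochondrially encoded and of the nuclear encoded genes (y axes, 1 panel each and on different scales) by week (x axis) and cohort, for weeks with at least 3 mice. In TOTO mice the mitochondrial median went from 5.33 at week 6 to 7.73 at week 8 and the nuclear median from 4.06 to 4.58. The nuclear median is that of the 79 genes with a mean of at least 1 TPM, although the panel title reads 80.

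After 6 weeks without tetracycline, transcripts of the mitochondrial genome were lower relative to the nuclear subunits in 16 of the 17 mice of the CML, TKI and TOTO cohorts (Tet-off mice), while few single genes passed the test. The shift between the genomes was -1.15 ± 0.93 on the log2 scale from week 0 to week 6 (mean ± SD, n = 17), with -0.82 ± 0.81 in CML, -0.90 ± 0.37 in TKI and -2.08 ± 1.32 in TOTO mice, against -0.27 ± 0.11 in the 3 controls. All 3 controls were below 0 as well, from -0.40 to -0.18. Tet-off mice 487 (-0.37), 541 (-0.13), 508 (-0.12) and 542 (0.01) lay within or above that range. The level difference changed by -1.11 ± 0.87 in the 17 mice, also lower in 16, and by -0.047 ± 0.27 in controls, lower in 2 of 3. Most of this change was present by week 1, when the level difference had changed by -0.67 ± 0.92 in CML, -0.84 ± 0.40 in TKI and -1.41 ± 0.91 in TOTO mice and by 0.55 ± 0.45 in controls. From week 1 to week 6 it changed by -0.16 ± 0.59, -0.050 ± 0.67 and -0.48 ± 1.58 in the same cohorts and by -0.60 ± 0.37 in controls. Counted from week 1, the fitted shift was -0.42 instead of -1.23, no mitochondrial gene was called and 16 nuclear genes rose. The share of all genes that rose from week 1 was not computed. A gene was called when the adjusted p of limma on the changes within each mouse was under 0.05; these p-values measure the spread between mice. Of the 13 mitochondrial genes, 2 fell and none rose, beside 12.2% of all tested genes that fell: mt-Nd2, a complex I subunit of the membrane arm, was lower in 10 of 17 mice and went from between 19.5 and 388 TPM at week 0 to between 1.55 and 109 TPM at week 6. Its log2 change was -1.41 (SE 0.44, adjusted p 0.031), and that of mt-Co3, lower in 10 of 17 mice, was -1.1 (SE 0.39, adjusted p 0.048). The ranges at both weeks overlapped for both genes. Of the 79 nuclear genes tested, 2 rose and none fell, beside 3.86% of all genes that rose: Ndufa3 (0.97, SE 0.31, adjusted p 0.034) and Atp5if1 (0.88, SE 0.27, adjusted p 0.027), with overlapping ranges as well.

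The rest of the mitochondrial genes did not pass and had fitted changes from -0.18 (SE 0.33, adjusted p 0.703; 0.21 after rescaling) for mt-Nd6 and -0.68 for mt-Co1 to -1.34 for mt-Nd3, with mt-Atp6 at -0.88, mt-Cytb at -1.07 (adjusted p 0.056) and mt-Nd1 at -1.09 (adjusted p 0.063). Core nuclear subunits had changes on both sides of 0: Ndufs1, the largest complex I subunit, -0.34; Sdha -0.43; Uqcrc1, a core protein of complex III, -0.09; Cox4i1 0.67; and Atp5f1a, the alpha subunit of ATP synthase, 0.14. The median change was -1.07 for the mitochondrial, 0.16 for the nuclear and -0.34 for all tested genes. With each library divided by its median-ratio size factor, which takes the median of all genes to 0.01, 9 mitochondrial genes fell and 68 nuclear genes rose, beside 36.6% of all genes that fell and 36.9% that rose. All 4 calls come from the Tet-off cohorts pooled. None was left without TOTO mouse 483 or with batch in the fit. Neither mitochondrial call was left without any one of CML 477, CML 480, CML 484, TOTO 476 and TOTO 482. Without CML mouse 487, 3 were left (1 mitochondrial, 2 nuclear).

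Markers of other cells moved in the same interval. Of 15 neutrophil markers 12 rose (median 2.5) and of 12 platelet markers 9 rose, while 12 of 12 B cell markers fell (median -1.42) and 7 of 14 T cell markers fell; their part in the change was not tested. Within batches the shift of Tet-off mice was -0.91 in batch 2021_E (n = 2), -1.46 in 2022_A (n = 10) and -0.64 in 2022_B (n = 5). Set against the 3 controls in the same fit, no gene of the 92 and none of the 10519 passed (0.0%), with 232 genes (2.21%) at an unadjusted limma p under 0.05. After rescaling 10 nuclear genes were higher than in controls, beside 7.52% of all genes higher and 7.31% lower. The fitted shift relative to controls was -0.89, -0.99 without mouse 487 and -0.077 when counted from week 1. The smallest p values among the nuclear genes were those of Uqcrq (1.65, SE 0.77) and Ndufa3 (1.66, SE 0.81) and among the mitochondrial genes that of mt-Co2 (1.54, SE 1.25), each with an adjusted p of 1 by limma.

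Over the same weeks the TKI and CML cohorts, both off tetracycline, differed in most genes. The labels do not say whether the week 6 libraries of TKI and TOTO mice were taken before the first nilotinib dose or the return to tetracycline. Of the mitochondrial genes 10 of 13 and of the nuclear genes 78 of 79 rose more in TKI than in CML mice, beside 89.6% of all genes (0.542% rose less), and the medians were 1.72, 1.82 and 1.58 for mitochondrial, nuclear and all genes. The leading nuclear genes were Atp5mk (2.44), a small ATP synthase subunit, Ndufa4 (2.37), a complex IV component, and Cox5b (2.29), Cox5a (2.27) and Ndufv3 (2.23). Among mitochondrial genes mt-Co3 (2.05), mt-Nd4 (1.90) and mt-Atp8 (1.89) led, and mt-Nd6 did not pass (0.90, SE 0.60, adjusted p 0.146). The counts depended on week 0. TKI libraries of week 0 had nuclear medians between 2.81 and 3.89 and haemoglobin shares between 49.6 and 67.2%, against 3.45 to 5.47 and 6.67 to 60.4% in CML libraries. After rescaling 2 nuclear genes, Ndufs3 and Ndufa5, were called lower, beside 2.57% of all genes lower and 0.951% higher. No member was called when the change was counted from week 1. Without CML mouse 487, 8 mitochondrial and 74 nuclear genes were called, and without CML mouse 484, 5 and 73. The fitted shift between these cohorts was -0.09, being 0.52 within batch 2022_A, -0.78 within batch 2022_B and 0.06 without mouse 487.

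By the end of the series mitochondrial transcripts were lower relative to the nuclear subunits in all 6 CML mice. The last library was that of week 7 in mouse 477, week 11 in mouse 484, week 16 in mouse 542 and week 18 in the other 3, so animals at different times are pooled and set against controls at week 18. From week 0 to each mouse's last library the shift was -1.24 ± 0.52 (SD, n = 6, from -2.21 to -0.72), against -0.33 ± 0.54 in controls (n = 3, from -0.83 to 0.24). The level difference changed by -1.28 ± 0.60 and -0.25 ± 0.67. The lowest control change lay below the highest CML change, so the groups overlapped. In single genes, mt-Cytb went from between 257 and 1425 TPM to between 72.6 and 332 TPM in CML mice, and Cox4i1 from between 34.4 and 155 TPM to between 48.4 and 201 TPM. Relative to controls, mt-Cytb had a fitted change of -0.80 (SE 0.74), mt-Nd1 -0.49, mt-Co1 -0.02, mt-Atp6 -0.76, mt-Nd6 0.43, Ndufs1 0.27, Sdha 0.12, Uqcrc1 0.25, Cox4i1 0.91 and Atp5f1a 0.40. None of the 92 genes and none of all genes (0.0%, also after rescaling) passed limma at an adjusted p under 0.05, with 128 genes (1.22%) under an unadjusted 0.05. The smallest unadjusted p values were those of mt-Co2 (1.84, SE 0.95), Uqcrq (1.08, SE 0.72) and Ndufa3 (1.06, SE 0.71), all at an adjusted p of 1. The neutrophil marker sum of CML mice was 558 to 16240 TPM at week 0 and 4955 to 44449 TPM in the last libraries; its part was not tested. Within batches the CML shift minus the control shift was -1.31 for the 2 CML and 2 control mice of batch 2021_E and -0.61 for the 2 CML mice and 1 control of batch 2022_A, and over all mice the fitted shift was -0.90, or -0.94 without mouse 487 and -0.39 when counted from week 1.

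Nilotinib was given between weeks 6 and 10, and no gene of either genome passed over that interval in TKI mice (0 of 92, with 2.18% of all genes rising and 3.18% falling; 2198 genes, 20.9%, were at an unadjusted limma p under 0.05). After rescaling 2 nuclear genes rose and 8 fell, beside 19.3% of all genes that rose and 17.7% that fell. The catalytic subunit mt-Co1 was at 855 to 1586 TPM at week 6 and 749 to 2203 TPM at week 10, a fitted change of 0.33 (SE 0.20), and Cox4i1 at 87.7 to 181 and 91.6 to 170 TPM, a change of 0.05 (SE 0.20). The other core subunits were between -0.37 (mt-Atp6, SE 0.59) and 0.29 (mt-Cytb, SE 0.24). The nuclear genes nearest the threshold were Cox5a (0.45, SE 0.21, adjusted p 0.223) and Ndufs4 (0.41, SE 0.21, adjusted p 0.270), and the nearest mitochondrial gene was mt-Nd4l (0.43, SE 0.25, adjusted p 0.343). All 15 neutrophil markers fell in the same interval, with a median of -1.92. The shift was 0.19 ± 0.93 in TKI mice (SD, n = 7, from -1.44 to 1.58), 0.21 ± 0.15 in controls (n = 3) and -0.14 ± 0.37 in CML mice (n = 5), and the level difference changed by 0.21 ± 0.85, 0.049 ± 0.37 and -0.078 ± 0.26. The fitted shift of TKI mice was 0.27, and 0.54 with week 9 in place of week 10.

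Compared with CML mice over the same weeks, again no member passed, beside 0.0% of genes higher and 0.038% lower in TKI mice. At an unadjusted limma p under 0.05 were 1372 genes (13.0%). On simulated data with few changed genes and independent noise, this comparison recovered 20% of genes changed by 1 and 86% of those changed by 2 on the log2 scale. After rescaling 5 nuclear genes were lower in TKI mice, beside 12.0% of all genes lower and 9.29% higher. Among nuclear genes Cox5b (-0.81, SE 0.34, adjusted p 0.285) and Ndufa8, an accessory complex I subunit (-0.83, SE 0.36, adjusted p 0.301), came closest, and among mitochondrial genes mt-Co2 (-1.11, SE 0.81, adjusted p 0.634). The fitted shift of TKI relative to CML mice was 0.39 (0.24 with means over the genes in place of medians), with 0.66 within batch 2022_A, where 1 CML mouse was available, and 0.20 within 2022_B. It was 0.37 without mouse 487.

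After nilotinib ended, both genomes changed in the 6 TKI mice sampled beyond week 10. Their last library was that of week 11 in mice 511 and 513, week 12 in mouse 508 and week 16 in the other 3, so intervals of 1 to 6 weeks are pooled. From week 10 to the last library 5 of 13 mitochondrial genes fell and none rose, beside 16.4% of all genes that fell. The complex IV core mt-Co1 went from between 749 and 2203 TPM to between 467 and 1259 TPM and was lower in 6 of 6 mice, with a change of -1.01 (SE 0.27, adjusted p 0.006). The others were mt-Cytb (-1.22, SE 0.33), mt-Nd4 (-1.18, SE 0.32), mt-Nd5 (-0.88, SE 0.32) and mt-Nd4l (-1.32, SE 0.43), and all ranges overlapped between the weeks. The calls of mt-Co1, mt-Cytb and mt-Nd4 rested on mouse 512: without it their adjusted p values were 0.053, 0.050 and 0.058, and no mitochondrial gene was called.

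Nuclear genes moved in both directions over these weeks, 7 falling and 2 rising, beside 8.83% of all genes that rose. The ATP synthase inhibitor Atp5if1 fell from between 192 and 306 TPM to between 29.7 and 161 TPM, without overlap and in 6 of 6 mice, a change of -1.69 (SE 0.33, adjusted p 2.94e-04). Subunits of complex IV fell with it, namely Cox5a (-1.47, SE 0.32), Cox6c (-0.68, SE 0.25) and Cox7b (-0.75, SE 0.25), as did Ndufa4 (-1.26, SE 0.30), Ndufa3 (-1.15, SE 0.27) and Ndufs4 (-0.86, SE 0.28), an accessory subunit of complex I. Ndufa8 rose by 0.99 (SE 0.33) and Sdhd, a membrane anchor of complex II, by 0.97 (SE 0.34), but both had changes below 0 with week 11 in place of week 10 (-0.092 and -0.22), when 8 mitochondrial and 22 nuclear genes fell and none rose; that setting also leaves out mice 511 and 513, so week and mice change together. With batch as a term 1 mitochondrial and 5 nuclear genes fell and 30 nuclear genes rose. No share of all genes was computed for that term or for week 11. After rescaling 7 mitochondrial genes fell, 20 nuclear genes rose and 13 fell, beside 27.6% of all genes that rose and 28.0% that fell. Core subunits without a call were Ndufs1 (0.32), Sdha (-0.22), Uqcrc1 (0.40), Cox4i1 (0.00), Atp5f1a (-0.10), mt-Nd1 (-0.65), mt-Nd6 (-0.45) and mt-Atp6 (0.29). In the same interval 14 of 15 neutrophil markers rose and 12 of 12 platelet and 11 of 12 B cell markers fell; their part was not tested. The shift was -0.74 ± 0.60 in TKI (n = 6), -0.48 ± 0.66 in CML (n = 5) and -0.30 ± 0.57 in control mice (n = 3), and the level difference changed by -0.69 ± 0.73, -0.48 ± 0.83 and -0.26 ± 0.74, so the cohorts overlapped within their spread.

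**Figure D4:**
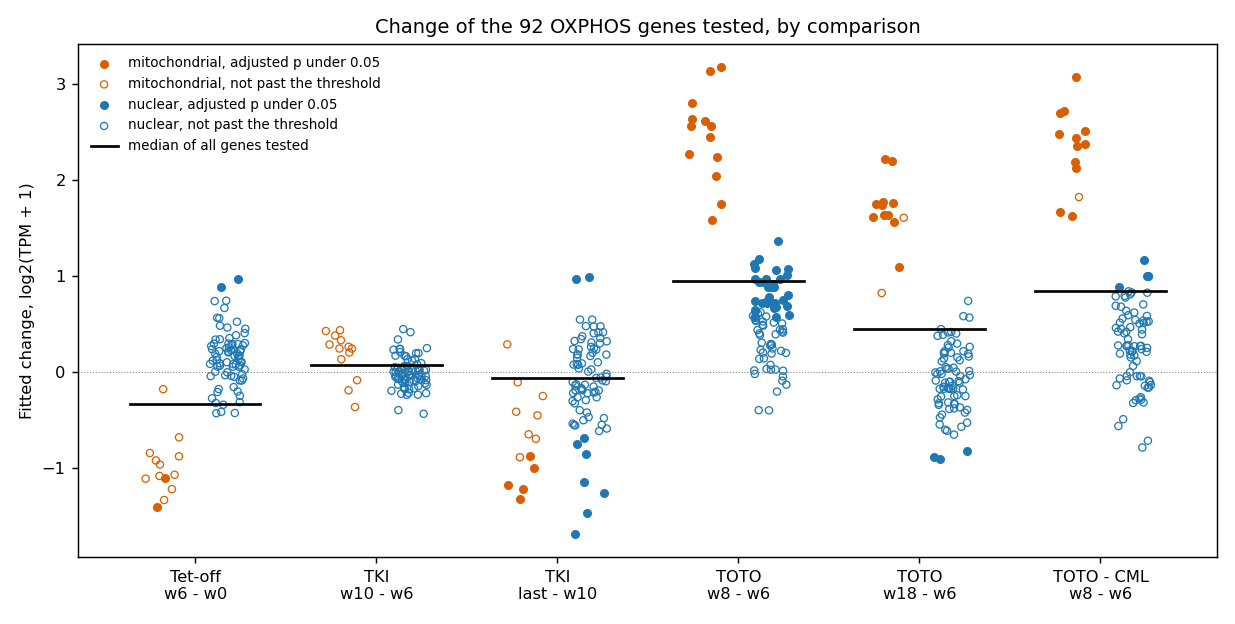
Fitted change of log2(TPM + 1) (y axis) of each of the 92 tested genes in 6 comparisons (x axis; w, week), mitochondrially encoded genes in orange and nuclear encoded genes in blue; filled points had a limma adjusted p under 0.05 and the black bar is the median of all genes tested. From week 6 to week 8 in TOTO mice the 13 mitochondrial genes lie between 1.58 and 3.18, and the median of the nuclear genes is 0.54.

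Among the 11 comparisons the largest median change of the mitochondrial genes was seen when tetracycline was returned to TOTO mice. Its size depends on week 6 as the starting week. In mice 476, 482, 483 and 545 the level difference was 2.43, 1.93, 1.69 and 1.97 at week 5. At week 6 it was 1.56, -0.51, 1.82 and 2.21, so it fell in mice 476 and 482 and rose in mice 483 and 545. Their week 6 libraries had 7087, 8380, 9349 and 11056 genes at 1 TPM or more. The change from week 5 to week 8 was not tested. From week 6 to week 8 all 13 mitochondrial genes rose, with a median log2 change of 2.56, while 34 of 79 nuclear genes rose with a median of 0.54, beside 70.3% of all genes that rose (4.45% fell) and a median of 0.95 for all genes. In mice 476, 482, 483 and 545, in that order, mt-Cytb was at 59.7, 24.8, 173 and 359 TPM at week 6 and at 634, 530, 879 and 500 TPM at week 8. Every week 8 value was above every week 6 value. The fitted change of mt-Cytb was 2.64 (SE 0.48, adjusted p 9.60e-05). The transgene transcript, which lay between 1.54 and 16.0 TPM at week 6, was at 0.155 or less at week 7 and at 0 in all 4 mice at week 8.

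The mitochondrial genes differed in size of change. The complex I genes mt-Nd3 (3.18, SE 0.68) and mt-Nd2 (3.13, SE 0.55) and the ATP synthase gene mt-Atp8 (2.81, SE 0.61) had the largest fitted values. In the same order of mice, mt-Nd2 was at 8.32, 1.55, 28.1 and 58.1 TPM and then at 138, 103, 181 and 91.3 TPM, with no overlap. mt-Nd1 rose by 2.62 (SE 0.52) and mt-Atp6 by 2.27 (SE 0.53). The abundant mt-Co1 rose less, by 1.75 (SE 0.43, adjusted p 9.89e-04), from 298, 130, 906 and 1308 TPM to 1813, 1390, 2050 and 1162 TPM, and was lower at week 8 in mouse 545. mt-Nd6, the gene of the opposite strand, rose by 1.58 (SE 0.40) from 10.4, 25.5, 30.3 and 43.9 TPM to between 51.8 and 149 TPM. In 9 of the 13 genes the 2 weeks did not overlap. The share of all genes without overlap was not computed, and 70.3% of all genes rose over these weeks.

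**Figure D5:**
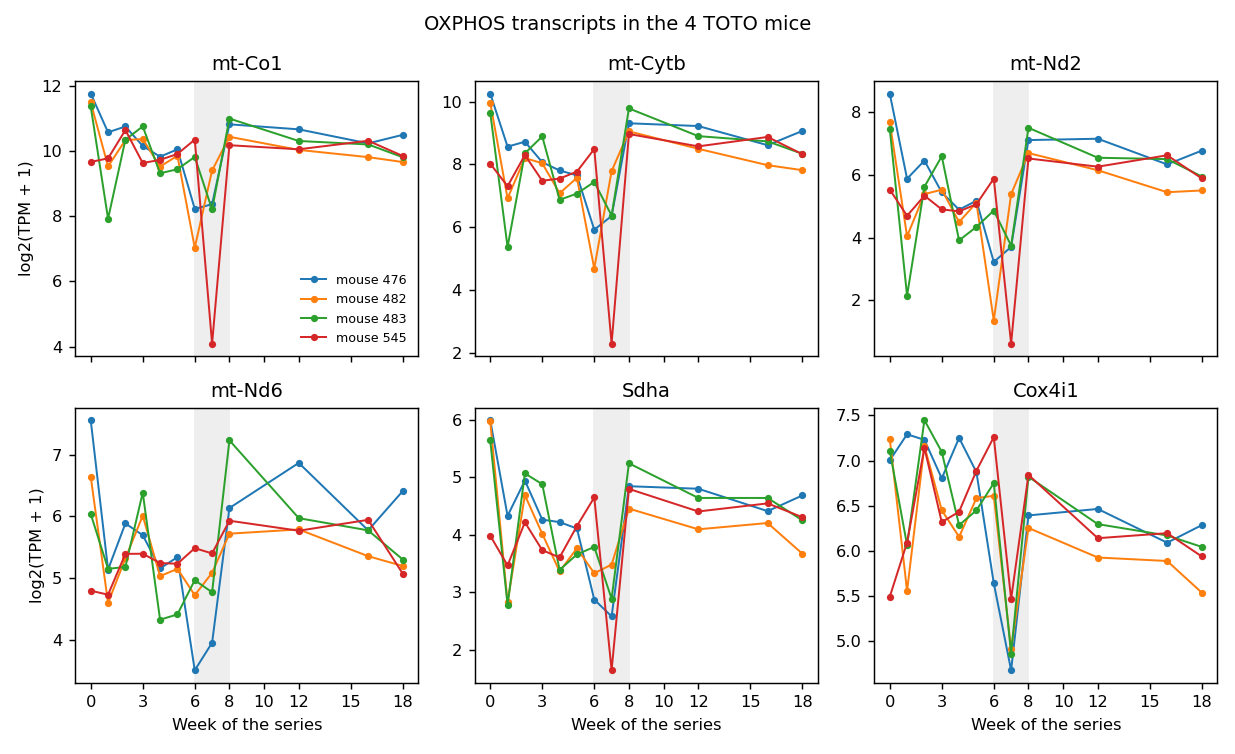
Level of mt-Co1, mt-Cytb, mt-Nd2, mt-Nd6, Sdha and Cox4i1 as log2(TPM + 1) (y axes, each with its own range) in each of the 4 TOTO mice by week (x axis); the grey band marks weeks 6 to 8. In mouse 545 mt-Co1, mt-Cytb and mt-Nd2 were lowest at week 7 (mt-Co1 16.0 TPM), with mt-Nd6 at 41.3 TPM in the same library, and Cox4i1 was at 49.0 to 152 TPM at week 6 and 75.3 to 114 TPM at week 8.

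Among the nuclear genes that rose were core subunits of complexes I and II. Ndufs3, a core subunit of complex I, was at 3.13, 5.68, 6.50 and 12.4 TPM at week 6 and at 15.7, 13.9, 25.0 and 17.9 TPM at week 8, a change of 1.36 (SE 0.30, adjusted p 4.35e-04) with no overlap. Sdha rose by 1.17 (SE 0.30), from 6.33, 9.07, 12.8 and 24.1 TPM to 27.7, 20.9, 36.8 and 26.8 TPM. Ndufa10 (1.12), Ndufa12 (1.08), Ndufs1 (1.07), Uqcrc1 (0.94) and Atp5f1a (0.75, adjusted p 0.016) rose as well. By complex, 18 of 37 nuclear genes of complex I, 3 of 4 of complex II, 4 of 8 of complex III, 1 of 12 of complex IV and 8 of 18 of complex V rose, and none fell. Cox4i1 showed no call, with a change of 0.01 (SE 0.25, adjusted p 0.968).

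Whether the nuclear genes rose or fell depended on the scale, and the gap between the genomes did not. After rescaling, the median of all genes went from 0.95 to 0.02; 9 mitochondrial genes still rose and none fell (33.5% of all genes rose and 33.9% fell), whereas 64 nuclear genes fell and 1 rose. On that scale Cox4i1 was at -1.21, Atp5f1a at -0.45, Uqcrc1 at -0.22, Ndufs1 at -0.016 and Sdha at 0.01, and mt-Cytb at 1.41. The level difference went from 1.56, -0.51, 1.82 and 2.21 at week 6 to 3.65, 3.10, 3.33 and 2.51 at week 8, with no overlap, a change of 1.88 ± 1.38 (SD, n = 4). Over the same weeks it changed by -0.041 ± 0.38 in controls (n = 3), -0.031 ± 0.62 in CML (n = 5) and 0.27 ± 0.30 in TKI mice (n = 7). The shift taken gene by gene was 2.01 ± 1.36 in TOTO mice, 0.14 ± 0.13 in controls, -0.14 ± 0.59 in CML and 0.46 ± 0.43 in TKI mice. Mouse 482 had the largest change by both measures (3.61 in level difference, 3.73 in shift), and without it the fitted shift was 1.40 instead of 2.02. With week 7 in place of week 8 the fitted shift was 0.44. Then 75 nuclear genes were called lower and no mitochondrial gene was called, but the share of all genes was not computed for that week. Haemoglobin took 62.1 to 70.4% of TPM in TOTO libraries of week 7 and 24.9 to 58.8% in those of week 6. The 13 mitochondrial calls at week 8 were also made without the block on the mouse (with 18 nuclear genes) and with only TOTO mice in the fit (with 17), and 11 with batch as a term (with 6). Leaving out mouse 476, 482 or 483 left 12 mitochondrial calls and 10, 21 or 20 nuclear genes called higher.

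Week 7 stood between weeks 6 and 8 in 3 of 4 mice. The level difference was 2.34, 3.07 and 1.94 in mice 476, 482 and 483, and -1.1 in mouse 545. The library of mouse 545 at week 7 had 5541 genes at 1 TPM or more and the lowest mitochondrial share of the series (0.00708% of TPM). In it mt-Nd6 exceeded the median of the other 12 mitochondrial genes by 4.52 on the log2 scale, and in mouse 482 at week 6 by 1.51. In the other TOTO libraries of weeks 6, 7 and 8 the same value was between -1.95 and 0.06. In those 2 libraries mt-Nd6 was therefore not low in step with the genes of the other strand.

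Set against CML mice over the same weeks, a comparison added after seeing the data, 12 mitochondrial and 5 nuclear genes rose more in TOTO mice, beside 49.2% of all genes higher and 3.25% lower. mt-Nd2 differed by 3.08 (SE 0.74, adjusted p 0.004), mt-Atp8 by 2.72 (SE 0.82) and mt-Cytb by 2.49 (SE 0.65), and mt-Co2 did not pass (1.82, SE 1.09). The nuclear genes were Ndufs3 (1.17), Ndufs1 (1.00), Sdha (1.00), Ndufa12 (0.99) and Ndufa5 (0.89), between -0.020 (Ndufa5) and 0.19 after rescaling, when 59 nuclear genes were lower and 7 mitochondrial genes higher, beside 29.0% of all genes lower and 27.2% higher. With week 7 in place of week 8, 72 nuclear genes were lower, no mitochondrial gene was called and the fitted shift was 0.052. The share of all genes was not computed for that week. Without mouse 487, 12 mitochondrial and 3 nuclear genes were called and the fitted shift was 2.14 instead of 2.11. Leaving out TOTO mouse 476 or 482 left 7 mitochondrial genes, and without CML mouse 484, 30 nuclear genes were called. All TOTO mice belonged to batch 2022_A, where the single CML mouse with both weeks gave a shift difference of 1.41; with batch in the fit no member was called.

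Blood composition changed between these weeks too. All 12 B cell markers rose (median 3.07) and 13 of 14 T cell markers rose, while 14 of 15 neutrophil markers and 9 of 14 erythroid markers fell. The B cell marker sum went from between 161 and 662 TPM to between 2371 and 3957 TPM, and the neutrophil sum from between 4066 and 20722 TPM to between 1012 and 1484 TPM, without overlap in either case. Across the 48 TOTO libraries, which come from 4 mice, the Spearman correlation of the level difference was 0.807 with the B cell sum and 0.609 with the number of genes at 1 TPM or more. With the neutrophil sum it was -0.346 in TOTO, -0.585 in CML, -0.508 in TKI and 0.142 in control libraries. With the B cell sum it was 0.460 in CML, 0.450 in TKI and 0.168 in control libraries. With the number of genes at 1 TPM or more it was 0.122, -0.0853 and 0.173 in the same order. The part of these markers in the change was not tested.

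At week 18 the median log2(TPM + 1) of the mitochondrial genes was again above its week 6 level in TOTO mice 476, 482 and 483. In mouse 545 it was 7.13 at week 6 and 7.01 at week 18, and mt-Cytb went from 359 to 320 TPM. The same week 6 libraries serve this comparison and those above, so the changes are not independent. From week 6 to week 18, 11 of 13 mitochondrial genes rose (18.2% of all genes did) and 3 of 79 nuclear genes fell (5.2% of all genes did). mt-Nd3 (2.22, SE 0.70) and mt-Nd2 (2.20, SE 0.61) led again, followed by mt-Nd4 (1.77), mt-Nd1 (1.77), mt-Cytb (1.75, SE 0.52) and mt-Atp6 (1.56, SE 0.34). mt-Co1 passed narrowly (1.1, SE 0.40, adjusted p 0.041) with only 2 of 4 mice higher, from 298, 130, 906 and 1308 TPM to 1450, 812, 899 and 924 TPM, and not without mouse 476 (adjusted p 0.224); mt-Nd6 (0.82, adjusted p 0.125) and mt-Co3 (1.61, adjusted p 0.083) did not pass. These calls rest on a spread shared with the other cohorts: 0 members were called when TOTO mice alone entered the fit or when batch was a term, and 1 without the block on the mouse. Without mouse 476, 3 mitochondrial genes were called higher and 15 nuclear genes lower, and without mouse 482, 7 and 3. After rescaling 6 mitochondrial genes rose and 64 nuclear genes fell, beside 28.0% and 28.3% of all genes. The nuclear genes that fell were Ndufa3 (-0.91, SE 0.26), Atp5if1 (-0.88, SE 0.25) and Uqcrq (-0.82, SE 0.26), a small complex III subunit. Ndufs1 (0.40), Sdha (0.57), Uqcrc1 (0.28), Cox4i1 (-0.61) and Atp5f1a (0.04) had no call.

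Relative to controls over the same weeks, mt-Atp6 was the single mitochondrial gene called (2.13, SE 0.51, adjusted p 0.006; 3.93% of all genes were higher) and Uqcrq the single nuclear one (-1.27, SE 0.39, adjusted p 0.035; 3.3% were lower). Neither call held in every alternative: mt-Atp6 had an adjusted p of 0.176 without control mouse 489, and Uqcrq lost its call without any of 6 mice in turn. Without TOTO mouse 545, 8 mitochondrial genes were called higher, and without TOTO mouse 476, 14 nuclear genes lower. After rescaling 1 mitochondrial gene was higher and 62 nuclear genes were lower, beside 22.6% of all genes higher and 24.7% lower. mt-Cytb was at 1.58 (SE 0.80), mt-Nd1 at 1.57, mt-Co1 at 1.07, mt-Nd6 at 0.64, Ndufs1 at 0.28, Sdha at 0.57, Uqcrc1 at -0.02, Cox4i1 at -0.93 and Atp5f1a at -0.18. The shift was 1.77 ± 1.28 in TOTO mice (SD, n = 4, all above 0), -0.08 ± 0.57 in controls (n = 3) and -0.66 ± 0.15 in the 3 CML mice with week 18, and the level difference changed by 1.65 ± 1.13, -0.21 ± 0.52 and -0.31 ± 0.14. Within batch 2022_A, with 1 control mouse, the shifts of TOTO and control mice differed by 1.95. B cell markers rose (12 of 12) and neutrophil markers fell (14 of 15) over these weeks as well.

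Genes that read, translate and supply the mitochondrial genome are encoded in the nucleus, and in TOTO mice from week 6 to week 8 most of them rose, as 70.3% of all genes did. Of 24 genes of mitochondrial transcription and RNA handling 22 rose (91.7%), with a median of 1.25 against 0.95 for all genes; Polrmt, the mitochondrial RNA polymerase, rose by 1.72 (SE 0.27, adjusted p 2.66e-05) and Mterf2, a transcription termination factor relative, by 1.39 (SE 0.22). After rescaling 19 of them still rose and 2 fell, Polrmt by 0.84. Of 77 mitochondrial ribosome genes 64 rose (83.1%, median 0.94, close to all genes; Mrps5 1.62, Mrpl49 1.56), of 35 assembly factors 30 (0.85; Acad9 1.61, Ndufaf1 1.18), of 18 tricarboxylic acid cycle genes 17 (1.05; fumarase Fh1 1.74, Suclg2 1.48), of 11 cytochrome c and coenzyme Q genes 10 (1.07; Coq8a 1.76, Coq2 1.45) and of 8 regulators of biogenesis 7 (1.19; Hcfc1 1.60, Nrf1 1.31). After rescaling these lists split in direction, with 15 ribosome genes higher and 18 lower, beside 33.5% and 33.9% of all genes. Mitophagy genes differed: 2 of 11 rose, Atg5 (0.97) and Pink1 (0.65), and 1 fell, with a median of -0.10.

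In TKI against CML mice from week 0 to week 6, 23 of 24 transcription, 74 of 77 ribosome, 32 of 35 assembly, 18 of 18 tricarboxylic acid cycle, 10 of 11 coenzyme Q, 8 of 8 biogenesis and 6 of 11 mitophagy genes were higher in TKI mice, beside 89.6% of all genes. In other comparisons few genes of these lists passed. From week 0 to week 6 in Tet-off mice 12.2% of all genes fell and 1 of 24 transcription genes (Polg2, the accessory subunit of the mitochondrial DNA polymerase, -1.01, SE 0.31) fell, as did 3 of 35 assembly factors (among them Acad9, -0.91, and Ttc19, -0.76) and 1 of 11 coenzyme Q genes (Coq8a, -1.01); no gene of the ribosome, the tricarboxylic acid cycle, the biogenesis or the mitophagy list passed. From week 10 to the last library of TKI mice, where 8.83% of all genes rose and 16.4% fell, Rexo2 fell (-1.23) among transcription genes, 3 assembly factors fell (Coa5 -1.76, Sdhaf4 -1.08), Mrpl33 rose (1.41), Myc fell (-0.82), and of the mitophagy genes 2 rose (Bnip3 1.23) and 2 fell (Optn -0.997). From week 6 to week 18 in TOTO mice 6 of 24 transcription genes rose (25%, beside 18.2% of all genes), among them Tfam (1.38, SE 0.38), which packages mitochondrial DNA, with 3 ribosome genes, 3 assembly factors, 2 coenzyme Q genes, 1 regulator of biogenesis (Pprc1 1.04) and Fh1 (0.92).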

How the data were processed

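Blood RNA of 20 mice (298 libraries) was profiled by ribosomal-depleted, reverse-stranded sequencing, per the labels' protocols. The authors deposited a table of TPM per gene; STAR, Salmon and the GRCm39 build are named in the submitters' processing notes, with no versions given in the sources used here. The table's name gives a filter of 1 TPM in 5 libraries, which 14604 of its 14605 rows reached. TPM keeps no read depth, so the depth is unknown and no counting interval is given; values in a library sum to between 989100 and 999879.

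Gene identifiers were matched to GENCODE release 39 of the mouse annotation (14537 matched), which gave biotypes, positions and sequences. Genes with a mean of at least 1 TPM (10519) were put on the log2(TPM + 1) scale, so fold changes of low genes are understated. The change of each mouse between a pair of weeks was fitted with limma 3.58.1 (R 4.3.3; lmFit, eBayes with trend) with a term per cohort, a spread shared by all cohorts with both weeks, and Benjamini-Hochberg adjustment over all genes. In the first comparison the Tet-off cohorts shared a term. Taking changes within a mouse blocks on the animal: libraries carrying the same mouse number come from the same animal, and their deviations correlated by 0.189 on average within mice (from -0.453 to 0.566) and by -0.00974 between mice. The shift between the genomes is the median change of 13 genes minus that of 79 in a mouse, and the fitted shift is the same over the fitted changes. The level difference is the median level of 13 genes minus that of the same 79 in a library. None of these has a test. Rescaled values were divided by a median-ratio size factor per library, over genes above 0 in at least 95% of libraries. The share of all genes called was computed for the fits described above and for rescaled values. It was not computed for other settings, such as other weeks, a batch term or left-out mice. Nuclear copies were found with blastn 2.17.0 among the annotated transcripts, sense strand only (at least 90% identity over 100 bases). Tables and figures used Python 3.11.15. On simulated data for the 10519 genes, the TOTO week 6 to week 8 fit recovered 47% of genes changed by 1 and 93% of those changed by 2 on the log2 scale. The same values were 42 and 98% for Tet-off mice to week 6 and 75 and 98% for TKI mice from week 6 to week 10. For TKI against CML they were 0 and 20% from week 0 to week 6 and 20 and 86% from week 6 to week 10. In these simulations few genes were changed and the noise of each gene was independent, so shifts shared by whole libraries were not simulated. In the data, by contrast, 89.6% of all genes were called higher in TKI than in CML mice from week 0 to week 6.

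The members, gene lists, tests and naming rule were chosen with earlier results of these data known. Named in every comparison were 10 core subunits (mt-Nd1, mt-Nd6, mt-Cytb, mt-Co1, mt-Atp6, Ndufs1, Sdha, Uqcrc1, Cox4i1, Atp5f1a). To these were added, among called genes with a mean of at least 5 TPM and the fitted sign in at least 80% of mice, the 5 largest nuclear and 3 largest mitochondrial rises and falls, or the 2 nuclear and 1 mitochondrial gene of smallest p where none passed, and the 2 genes of smallest p of each other list. All further genes, among them mt-Nd4l, mt-Nd5, Cox6c, Cox7b, Ndufs4 and Uqcrq, were named after their values were seen. The TOTO against CML comparison and the settings with copies, with only the compared cohorts, or with rescaling and another week together were added after seeing the data. The week 17 library of control mouse 490 entered no comparison.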

Additional observations from a re-analysis of the deposited data

Results flagged for a closer look

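Of 98 groups of 4 to 10 mice examined for a mouse far from its group, 4 held one, where chance gives about 1 in 20. From week 0 to week 6, TKI mouse 508 had a shift between the genomes of -0.12, against -1.25 to -0.81 in the other 6 TKI mice. In the same interval mt-Nd6 changed by -0.53 in TKI mouse 512 and by 0.50 to 1.27 in the others. For mt-Atp6, TKI mouse 507 changed by -6.90 from week 6 to week 10, against -0.19 to 2.74, and by 6.20 from week 10 to its last library, against -1.59 to 0.39; the gene is listed at 0 TPM in that mouse at week 10.

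Between TKI and CML mice, 17 named genes differed in their change from week 0 to week 6 by limma's test of the difference. The differences of nuclear genes were 1.83 for Atp5f1a, 2.44 for Atp5mk, 1.91 for Cox4i1, 2.27 for Cox5a, 2.29 for Cox5b, 2.37 for Ndufa4, 1.74 for Ndufs1, 2.23 for Ndufv3, 1.96 for Sdha and 1.70 for Uqcrc1. Those of mitochondrial genes were 1.78 for mt-Atp6, 1.89 for mt-Atp8, 1.60 for mt-Co1, 2.05 for mt-Co3, 1.83 for mt-Cytb, 1.69 for mt-Nd1 and 1.90 for mt-Nd4. Over the same weeks mt-Co1 changed by 0.53 in TKI and by -1.07 in CML mice, and Atp5f1a by 1.32 and -0.51. None of the 17 was called after rescaling or with week 1 in place of week 0.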

How the results depend on the processing

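The fitted shift moved by less than its spread over mice under every alternative except another week: in TOTO mice it was 0.44 with week 7 in place of week 8 (0.48 also rescaled), in TOTO against CML 0.052 (0.17 also rescaled), and in CML against control -0.35 with rescaling and week 1 together. Counts of called genes depended on more. After rescaling 77 members were called from week 0 to week 6 in Tet-off mice, 10 against controls, 2 for TKI against CML, 10 in TKI mice from week 6 to 10, 5 against CML, 40 from week 10 to the last, 74 in TOTO mice to week 8, 70 to week 18, 63 against controls and 66 against CML. With rescaling and another week together the counts were 49 (Tet-off), 0 (TKI against CML), 17 (TKI to week 9), 1 (TKI from week 11), 72 (TOTO to week 16), 54 (against control) and 38 (TOTO against CML to week 7). With another week alone they were 16 (Tet-off from week 1), 0 (TKI against CML), 30 (TKI from week 11), 75 (TOTO to week 7), 0 (TOTO against control to week 16) and 72 (TOTO against CML to week 7). Without the block on the mouse they were 12 (Tet-off), 7 (TKI from week 10 to the last), 31 (TOTO to week 8), 1 (to week 18), 0 (against control) and 10 (against CML); the block moved no other count by over 1.5 times. With batch as a term they were 0 (Tet-off), 1 (TKI against CML to week 10), 36 (TKI to the last), 17 (TOTO to week 8), 0 (to week 18), 0 (against control) and 0 (against CML). With only the compared cohorts in the fit they were 30 (TOTO to week 8), 0 (to week 18), 1 (against control) and 10 (against CML). Without the filter on low values 5 were called in TOTO mice to week 18 and 0 against control, where a pseudocount of 0.1 left 1. The cause of these moves was not tested.

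Fitted changes turned sign as follows. After rescaling they were Uqcrc1 0.30 in Tet-off mice (0.59 from week 1); in TKI against CML Atp5f1a -0.16, Cox4i1 -0.11, Ndufs1 -0.058, Uqcrc1 -0.21, mt-Atp6 -0.24, mt-Atp8 -0.14, mt-Co1 -0.45, mt-Cytb -0.22, mt-Nd1 -0.35 and mt-Nd4 -0.14; in TOTO mice to week 8 Atp5f1a -0.45, Cox4i1 -1.21, Ndufs1 -0.016 and Uqcrc1 -0.22; to week 18 Atp5f1a -0.56 and Uqcrc1 -0.29; and in TOTO against CML Atp5f1a -0.46, Ndufa5 -0.020 and Sdha -0.018. From week 1 in TKI against CML they were Atp5f1a -0.10, Ndufs1 -0.023, Uqcrc1 -0.20, mt-Atp6 -0.028, mt-Atp8 -0.0059, mt-Cytb -0.12, mt-Nd1 -0.28 and mt-Nd4 -0.050, and from week 11 in TKI mice Ndufa8 -0.092 and Sdhd -0.22. To week 7 in TOTO mice they were Atp5f1a -1.30, Cox4i1 -1.59, Ndufa10 -0.66, Ndufa12 -1.26, Ndufs1 -0.78, Ndufs3 -0.67, Sdha -1.01, Uqcrc1 -1.11, mt-Atp6 -1.23, mt-Atp8 -0.60, mt-Co1 -1.34, mt-Cytb -0.93, mt-Nd1 -1.01, mt-Nd2 -0.47 and mt-Nd3 -0.54. Against CML to week 7 they were Atp5f1a -1.40, Ndufa12 -1.48, Ndufa5 -0.44, Ndufs1 -1.01, Ndufs3 -0.76, Sdha -1.39, Uqcrc1 -1.21, mt-Atp6 -2.02, mt-Atp8 -1.23, mt-Co1 -1.81, mt-Cytb -1.53, mt-Nd1 -1.46, mt-Nd2 -1.03 and mt-Nd3 -0.79.

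Leaving out each mouse in turn gave between 0 (without TOTO 483) and 11 (without TKI 502) called members in Tet-off mice, 0 throughout against controls, 78 to 90 for TKI against CML, 0 throughout in CML against control and in both comparisons of weeks 6 and 10, 4 (without TKI 512) to 19 (without TKI 511) in TKI mice to the last week, 23 (without TOTO 476) to 61 (without TOTO 545) in TOTO mice to week 8, 10 (without TOTO 482) to 18 to week 18, 0 (without control 489) to 15 (without TOTO 476) against control, and 8 (without TOTO 476) to 42 (without CML 484) against CML. In the same order the fitted shift ranged from -1.27 to -1.05, -0.99 to -0.75, -0.33 to 0.09, -1.09 to -0.70, 0.0040 to 0.57, 0.09 to 0.66, -0.81 to -0.53, 1.40 to 2.62, 1.1 to 2.25, 1.23 to 2.33 and 1.52 to 2.66. The unknown depth limits mt-Co2 and other genes listed at 0 in some libraries.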
